A study of Mus musculus with 3 samples.

Results

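The fibroblast growth factor genes examined here are 7 ligands (Fgf1, Fgf2, Fgf7, Fgf9, Fgf10, Fgf16 and Fgf18) and 3 receptors (Fgfr1, Fgfr2 and Fgfr3), taken by name as 10 of the 21438 genes listed in single-cell counts of adult mouse sciatic nerve. Each of the 10 has a row in all 4 count tables. The cells come from 3 libraries, 1 per group. In the injured beads library, wild-type CD1 nerves were resected and the distal segment was taken 9 days later, with myelin removal beads used to clean the digested cells. The injured FACS library is the same segment at the same time, sorted by FACS from CD1 and C57BL/6 mice (its gate and mouse number were not stated). The uninjured library is wild-type CD1 nerve cleaned with beads, for which only the cells called mesenchymal by the authors were analysed here. All nerves were digested with collagenase and trypsin. By its title, the series is about how mesenchymal precursors in adult nerves contribute to repair.

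FGF ligands are secreted proteins that bind heparan sulfate chains and dimerise receptor tyrosine kinases on nearby cells, which then signal through Ras and the ERK kinases. Fgf7 and Fgf10 belong to 1 subfamily and act mainly on the epithelial splice form of Fgfr2, Fgf9 and Fgf16 belong to another and Fgf18 to one more, while Fgf1 and Fgf2 lack a classical secretion signal. Sprouty, Spred and dual-specificity phosphatase genes are induced by the pathway and restrain it. In nerve, FGFs are best known as mitogens for Schwann cells and fibroblasts and as survival factors for neurons.

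The injured mesenchymal table held 1289 cells (4746263 UMIs, median 2798 per cell) and the uninjured one 880 cells (2169121 UMIs, median 2102.5). The 653 mesenchymal-like cells of the FACS library held 4279396 UMIs (median 5925). A UMI is a tag that counts 1 captured transcript. Levels are CPM (UMIs per 1000000 summed over the cells of a pool), with exact Poisson 95% intervals in brackets, and ratios carry an exact conditional binomial interval. All intervals cover counting error only, and with 1 library per group no difference has a replicate check and none was tested. Counts are of transcript ends and were not scaled by gene length, so levels are compared for the same gene across pools, not between genes. The 10 mesenchymal markers, among them Pdgfra and collagens, were all detected in the 3 pools and summed to 62267 CPM in the injured, 55541 in the FACS and 98696 in the uninjured cells. Markers of other cells moved with the groups. Schwann cell markers summed to 90.6, 114 and 352 CPM in injured, FACS and uninjured cells. Mononuclear phagocyte markers summed to 351, 1197 and 24.0 CPM in the same order, with only 13 of 18 listed for the uninjured library. The 6 red cell markers summed to 112 CPM for the injured pool and 1612 CPM for the uninjured pool. Only 1 of the 6, Hba-a1, was listed for the FACS library, at 0.467 CPM, so that value cannot be compared with these sums. The part of other cells' markers in the results below was not tested.

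Promoter sequence is shown for the 3 ligands on which the results turn, Fgf7, Fgf10 and Fgf9. Each is the 250 bases before a RefSeq transcription start on GRCm38.p6, with no annotated exon of GENCODE vM21 in the window. The Fgf7 window (chr2:126034408-126034657, plus strand) lies just before the gene (chr2:126034658-126091185). The Fgf10 window (chr13:118714449-118714698, plus strand) and the Fgf9 window (chr14:58072436-58072685, plus strand) lie within the annotated gene spans (chr13:118669791-118792115 and chr14:58070547-58112720), in introns of longer transcripts. Capitals mark matches, on either strand, to 5 motifs searched: the TATA box (TATAAA), the pentamer of the CCAAT box, the GC box (GGGCGG), the AP-1 site (TGANTCA) and the E-box (CACGTG), of which none overlapped another in these windows.
Fgf7 promoter: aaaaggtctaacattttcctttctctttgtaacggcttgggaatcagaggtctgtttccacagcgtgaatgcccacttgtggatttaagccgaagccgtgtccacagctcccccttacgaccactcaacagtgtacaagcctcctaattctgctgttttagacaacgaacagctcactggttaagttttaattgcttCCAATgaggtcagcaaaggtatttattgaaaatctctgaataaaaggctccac
Fgf10 promoter: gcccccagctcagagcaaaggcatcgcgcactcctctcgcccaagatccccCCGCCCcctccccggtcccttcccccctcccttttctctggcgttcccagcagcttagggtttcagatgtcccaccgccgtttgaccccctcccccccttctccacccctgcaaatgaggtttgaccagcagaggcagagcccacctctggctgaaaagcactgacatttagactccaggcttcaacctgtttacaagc
Fgf9 promoter: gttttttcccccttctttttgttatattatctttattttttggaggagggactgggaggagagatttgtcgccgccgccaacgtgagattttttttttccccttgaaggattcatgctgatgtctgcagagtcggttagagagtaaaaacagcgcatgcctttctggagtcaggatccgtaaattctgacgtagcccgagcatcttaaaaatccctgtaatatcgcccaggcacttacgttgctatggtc
The Fgf7 window held 1 CCAAT box starting at position -53 from the start and the Fgf10 window 1 GC box starting at position -199, while the Fgf9 window held none of the 5 motifs. Of 32851 promoter windows of this length in the RefSeq table, 33.9% held a CCAAT box, 32.7% a GC box, 12.4% a TATA box, 6.75% an AP-1 site and 6.02% an E-box.

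Taken over all mesenchymal cells, the injured nerve differed from the uninjured nerve most in Fgf9, which was lower, while Fgf7 and Fgfr1 were read in every pool and differed by less than 2-fold. A gene was called when it had at least 10 CPM in 1 pool, differed by at least 2-fold and had an interval that left out a ratio of 1. Of the 10 FGF genes, 7 had the 10 CPM, 1 was lower in the injured cells and 0 were higher. Of 9783 genes with that level, 6.90% were lower and 10.1% higher (17.0% either way), so 1 call among 7 FGF genes is no more than a description. Fgf2, Fgf16 and Fgfr3 stayed below 10 CPM in each of the 3 pools.

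**Figure D1:**
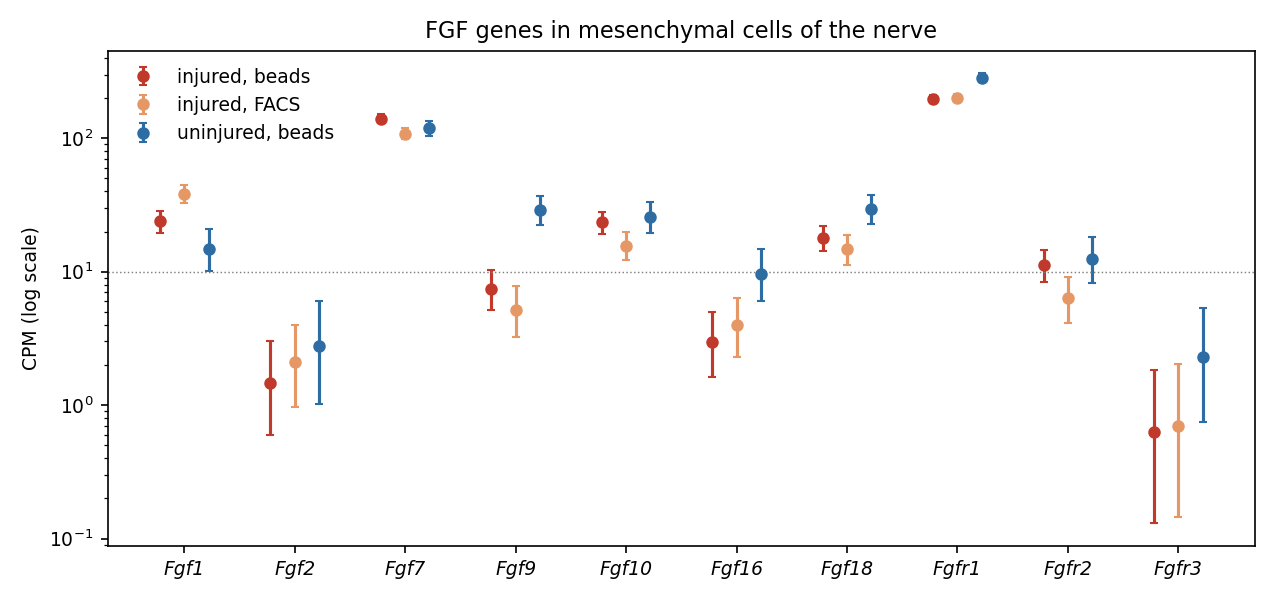
CPM of summed UMIs (log scale) of the 10 FGF genes in mesenchymal cells of the injured beads, injured FACS and uninjured libraries, with exact Poisson 95% intervals that cover counting error only; the dotted line is the 10 CPM minimum. Fgf9 stood at 7.37 and 5.14 CPM in the injured pools and 29.0 CPM in the uninjured pool, while Fgf7 lay between 108 and 140 CPM in all 3.

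Fgf7, a ligand that mesenchymal cells supply to epithelia in many organs, had 140 CPM (130 to 151) in the injured beads cells, 108 CPM (98.8 to 119) in the FACS cells and 119 CPM (105 to 134) in the uninjured cells. A UMI of Fgf7 was seen in 27.5% of injured, 28.6% of FACS and 17.8% of uninjured cells. When each cell was thinned to 1000 UMIs these shares were 11.5%, 9.82% and 9.46%. The pooled level of Fgf7 thus differed little between the groups, with a log2 ratio of 0.24 (0.03 to 0.45) for injured over uninjured and -0.13 (-0.36 to 0.09) for FACS over uninjured.

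Inside the mesenchyme, that even level covered a difference in 1 subclass. Cells were clustered without the 10 FGF genes and named from marker lists as endoneurial-like (the loose tissue around axons), epineurial-like (the outer connective sheath), perineurial-like (the barrier sheath around fascicles) and differentiating-like (a state marked by genes such as Dlk1, Mest, Postn and Tnc). Fgf7 stood at 162 CPM (143 to 182) in 253 injured endoneurial-like cells and 147 CPM (123 to 175) in 91 FACS endoneurial-like cells, against 30.6 CPM (21.2 to 42.8) in 426 uninjured ones. Both injured libraries were therefore above the uninjured one, by a log2 ratio of 2.40 (1.89 to 2.96) for injured and 2.27 (1.71 to 2.86) for FACS cells. Both ratios rest on the same uninjured library.

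Median depth differed in these cells, at 6174 UMIs per injured, 9262 per FACS and 2182.5 per uninjured endoneurial-like cell. After thinning each cell to 1000 UMIs, 13.5% of injured (33 of 245), 11.0% of FACS (10 of 91) and 2.09% of uninjured cells (8 of 382) held an Fgf7 UMI. The clusters differ too. All but 1 of the injured endoneurial-like cells form a cluster with no uninjured cell, led by Wif1, Ccl9, Ccl2 and Col28a1, with no endoneurial marker among its 10 leading genes. The uninjured ones form another, led by Angptl7, Enpp2 and Crispld2. Where each cell took the subclass of its highest marker score instead, the log2 ratio was 2.20 (1.68 to 2.75).

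In the other resident subclasses Fgf7 did not pass the rule in either injured library. Its level was 203 CPM (161 to 251) in injured, 156 CPM (125 to 192) in FACS and 221 CPM (192 to 254) in uninjured epineurial-like cells. In perineurial-like cells it had 156 CPM (107 to 221) in 71 injured and 152 CPM (94.0 to 232) in 66 uninjured cells, with 3 UMIs in 12 FACS cells. The log2 ratios of injured over uninjured were -0.13 (-0.52 to 0.25) and 0.04 (-0.80 to 0.91). These intervals lie below the 1.89 that bounds the endoneurial-like ratio from below, and the difference between the subclasses was not tested. The 664 injured differentiating-like cells had 116 CPM (102 to 130) and the 199 FACS ones 49.3 CPM (38.5 to 62.1). Only 8 uninjured cells fell in that subclass, so it is not compared with the uninjured nerve. A further 227 FACS cells had no subclass name and held 129 CPM of Fgf7 and 25.2 CPM of Fgf10.

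**Figure D2:**
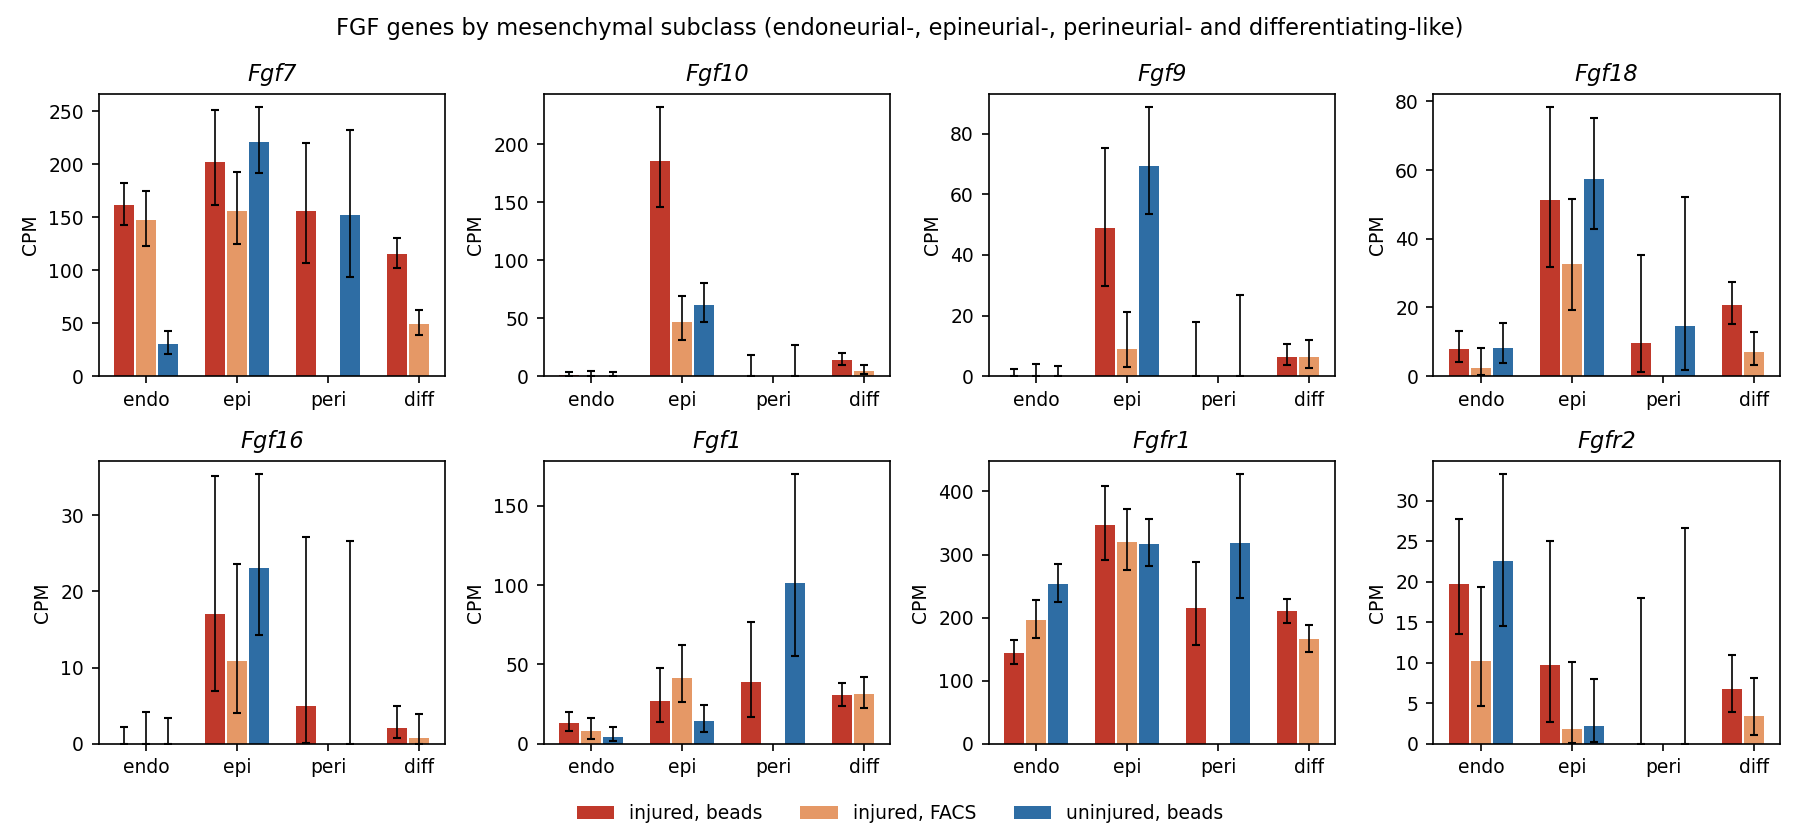
CPM of 8 FGF genes by mesenchymal subclass in the injured beads, injured FACS and uninjured libraries, with exact Poisson 95% intervals that cover counting error only; subclasses under 30 cells in a library are not drawn. Fgf7 in endoneurial-like cells stood at 162 and 147 CPM in the injured libraries and 30.6 CPM in the uninjured one, Fgf9, Fgf10, Fgf16 and Fgf18 were highest in epineurial-like cells, and Fgfr2 was highest in endoneurial-like cells. Subclasses are those named by cluster, and the FACS levels of Fgf9 and Fgf16 in epineurial-like cells rest on 5 and 6 UMIs.

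Fgf10, the close relative of Fgf7 that drives budding of lung and limb in embryos, was highest in epineurial-like cells of each library. Its pooled level was 23.4 CPM (19.2 to 28.2) in injured, 15.7 CPM (12.1 to 19.9) in FACS and 25.8 CPM (19.5 to 33.5) in uninjured mesenchymal cells. Of its 111 injured UMIs 76 were epineurial-like and 34 differentiating-like. Of its 67 FACS UMIs 26 were epineurial-like, 7 differentiating-like and 34 in the cells with no subclass name. All 56 uninjured UMIs were epineurial-like by cluster, and 54 were so by the highest marker score of each cell. In epineurial-like cells Fgf10 had 185 CPM (146 to 232) in 199 injured cells, 47.1 CPM (30.8 to 69.0) in 124 FACS cells and 61.7 CPM (46.6 to 80.1) in 379 uninjured cells.

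The injured libraries thus disagreed on Fgf10. The log2 ratio over uninjured cells was 1.59 (1.07 to 2.11) in the beads library, which passed the rule, and -0.39 (-1.12 to 0.31) in the FACS library, which did not. After thinning to 1000 UMIs, 15.4% of injured, 5.0% of FACS and 6.46% of uninjured epineurial-like cells held an Fgf10 UMI. All 3 epineurial-like clusters of the beads libraries stood higher in the injured cells. In the cluster led by Dkk2 and Cxcl13, injured cells had 254 CPM of Fgf10 and uninjured cells 113 CPM. In the one led by Comp and Inmt, injured cells had 149.8 CPM and uninjured cells 26.7 CPM. In the one led by Pcsk6 and Smpd3, injured cells had 108 CPM and uninjured cells 73.0 CPM. The FACS cells were clustered apart. Their epineurial-like clusters were led by Edn1 and Dpp4 and by Inmt and Fmo2, and a further cluster, led by Egfl6 and Angptl1 and scoring between epineurial and differentiating, stayed unnamed. Strain, isolation and library cannot be told apart in this contrast.

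Fgf9, Fgf16 and Fgf18 also had their highest level in epineurial-like cells of each library, among subclasses of at least 30 cells. In the FACS library these levels rested on 5 UMIs of Fgf9, 6 of Fgf16 and 18 of Fgf18, so the FACS order is weak, above all for Fgf9 and Fgf16. The share of their UMIs that lay there was smaller in both injured libraries than in the uninjured one. Fgf9, a ligand of the IIIc forms of the receptors, had 7.37 CPM (35 UMIs) in injured, 5.14 CPM (22 UMIs) in FACS and 29.0 CPM (63 UMIs) in uninjured mesenchymal cells, a log2 ratio of -1.98 (-2.62 to -1.36) for injured and -2.50 (-3.27 to -1.78) for FACS over uninjured. With subclasses named by cluster, all 63 uninjured UMIs lay in epineurial-like cells, 44 of them in the cluster led by Dkk2 and Cxcl13 (166 CPM, 120 to 222). Of the 35 injured UMIs 20 were epineurial-like and 15 differentiating-like, and of the 22 FACS UMIs 5 were epineurial-like, 9 differentiating-like and 8 in unnamed cells. Endoneurial-like and perineurial-like cells held 0 in every library, which allows up to 1.79 CPM in injured, 3.40 CPM in FACS and 2.70 CPM in uninjured endoneurial-like cells.

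Epineurial-like cells made up 199 of the 1289 injured and 379 of the 880 uninjured cells, so they hold a smaller part of the injured pool. Within them Fgf9 had 48.8 CPM (29.8 to 75.4) in injured, 9.06 CPM (2.94 to 21.1) in FACS and 69.4 CPM (53.3 to 88.8) in uninjured cells. Injured beads cells did not pass the rule there, with a log2 ratio of -0.51 (-1.31 to 0.24), which is also the ratio with the 3 resident subclasses weighted equally, while FACS cells did, with -2.94 (-4.61 to -1.64). Few cells carry these counts, and with each cell thinned to 1000 UMIs the pooled injured ratio was -1.06. The 35 injured UMIs came from 19 cells, the 22 FACS UMIs from 14 and the 63 uninjured UMIs from 24, with up to 6 UMIs in 1 uninjured cell.

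Fgf18, known for its part in cartilage and bone growth, had 17.9 CPM (85 UMIs) in injured, 14.7 CPM (63 UMIs) in FACS and 29.5 CPM (64 UMIs) in uninjured mesenchymal cells. The log2 ratio over uninjured cells was -0.72 (-1.21 to -0.23) for injured cells and -1.0 (-1.53 to -0.48) for FACS cells, of which the second was called. Of the FGF genes, 1 was higher (Fgf1) and 2 were lower (Fgf9 and Fgf18) in that FACS comparison, where 11.4% of 9753 genes were higher and 8.45% lower (19.8% either way). In epineurial-like cells Fgf18 stood at 51.3 CPM in injured, 32.6 CPM in FACS and 57.3 CPM in uninjured cells, with overlapping intervals. Those cells held 21 of the 85 injured, 18 of the 63 FACS and 52 of the 64 uninjured UMIs, while differentiating-like cells held 49 of the injured and 10 of the FACS UMIs and unnamed cells 32 of the FACS UMIs. Fgf16, a relative of Fgf9, had 14 UMIs in injured, 17 in FACS and 21 in uninjured mesenchymal cells. Epineurial-like cells held 7 of the injured, 6 of the FACS and all 21 uninjured UMIs, 17 of the last in the cluster led by Comp and Inmt.

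Fgf1, the ligand that binds every FGF receptor, differed in direction between subclasses. In all mesenchymal cells it had 23.8 CPM (19.6 to 28.6) in injured, 38.3 CPM (32.7 to 44.7) in FACS and 14.8 CPM (10.1 to 20.8) in uninjured cells. The log2 ratio over uninjured cells was 0.69 (0.11 to 1.30) for injured cells, under the 2-fold rule, and 1.38 (0.82 to 1.97) for FACS cells, past it. With the 3 resident subclasses weighted equally the injured ratio was -0.60. Endoneurial-like cells had 22 UMIs in injured (13.1 CPM), 7 in FACS (7.93 CPM) and 5 in uninjured cells (4.50 CPM). Perineurial-like cells had 8 UMIs in injured (39.1 CPM), 9 in FACS (171 CPM, in 12 cells) and 14 in uninjured cells (101 CPM). Both subclass ratios of injured over uninjured passed the rule, at 1.55 (0.11 to 3.30) and -1.37 (-2.83 to -0.02), on these small counts, and the FACS cells passed it in neither. Epineurial-like cells had 11 UMIs in injured (26.8 CPM), 23 in FACS (41.7 CPM) and 13 in uninjured cells (14.3 CPM). There the log2 ratio was 0.91 (-0.39 to 2.18) for injured over uninjured, which was not called, and 1.54 (0.50 to 2.64) for FACS over uninjured, which was called higher.

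Of the 10 genes, only Fgf1, Fgf7, Fgfr1 and Fgfr2 reached 10 CPM in endoneurial-like cells. Among these 2 were higher in injured than uninjured cells (Fgf1 and Fgf7) and 0 lower. Of all genes with the level there, 10.6% were higher and 9.49% lower (20.1% either way). In epineurial-like cells all but Fgf2, Fgfr2 and Fgfr3 reached the level. There 1 was higher (Fgf10) and 0 lower, against 5.05% and 2.18% of all genes (7.23% either way). In perineurial-like cells Fgf1, Fgf2, Fgf7, Fgf18 and Fgfr1 reached it. There 0 were higher and 1 was lower (Fgf1), against 2.87% and 4.26% (7.13% either way). Fgf2, a broad mitogen, had 7 UMIs in injured, 9 in FACS and 6 in uninjured mesenchymal cells, too few to compare.

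Fgfr1 was the receptor read throughout the mesenchyme. It had 198 CPM (185 to 211) in injured, 201 CPM (188 to 215) in FACS and 284 CPM (262 to 307) in uninjured cells, a log2 ratio of -0.52 (-0.67 to -0.37) for injured and -0.50 (-0.65 to -0.35) for FACS over uninjured, both under 2-fold. In endoneurial-like cells it had 145 CPM (127 to 164) in injured, 196 CPM (168 to 227) in FACS and 253 CPM (224 to 284) in uninjured cells, a log2 ratio of -0.81 (-1.06 to -0.55) for injured over uninjured. Epineurial-like cells showed no such gap, with 347, 321 and 317 CPM in injured, FACS and uninjured cells. Perineurial-like cells had 215 CPM (156 to 288) in injured, 114 CPM (6 UMIs in 12 cells) in FACS and 318 CPM (231 to 427) in uninjured cells. The log2 ratio was -0.57 (-1.20 to 0.07) for injured over uninjured, which was not called, and -1.48 (-3.00 to -0.24) for FACS over uninjured, which was called lower. With each cell given the subclass of its highest marker score, the injured ratio passed the rule too, at -1.24 (-1.69 to -0.79), on levels of 140.0 CPM for injured and 331 CPM for uninjured cells.

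Fgfr2, the receptor whose epithelial form binds Fgf7 and Fgf10, was low. With subclasses named by cluster, its level was highest in endoneurial-like cells of each library. It had 11.2 CPM (53 UMIs) in injured, 6.31 CPM (27 UMIs) in FACS and 12.4 CPM (27 UMIs) in uninjured mesenchymal cells. Endoneurial-like cells held 33 of the injured (19.7 CPM), 9 of the FACS (10.2 CPM) and 25 of the uninjured UMIs (22.5 CPM), and perineurial-like cells held 0 in each library. Of the other FACS UMIs, by cluster naming, 12 lay in unnamed and 5 in differentiating-like cells (8.89 and 3.47 CPM), so the FACS order does not exceed the counting error. The counts do not tell its splice forms apart. Fgfr3, a brake on bone growth, had 3 UMIs in injured, 3 in FACS and 5 in uninjured mesenchymal cells.

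At least 1 ligand UMI of the 7 was seen in 38.3% of injured, 47.3% of FACS and 28.5% of uninjured mesenchymal cells, and at least 1 receptor UMI in 43.0%, 62.8% and 44.4%. Both were seen in the same cell in 22.0% of injured, 34.8% of FACS and 14.9% of uninjured cells. These shares were not thinned, and depth was highest in the FACS and lowest in the uninjured cells.

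The injured nerve as a whole was then described by cell class, in the injured beads library (4300 barcodes, 10859939 UMIs) and the injured FACS library (2000 barcodes, 7122377 UMIs), which share 1 barcode. Fgf7, Fgf10 and Fgfr1 were highest in mesenchymal-like cells of both libraries and Fgfr3 in endothelial cell-like cells of both. Fgf1 was highest in pericyte or smooth muscle cell-like cells of the beads library, a name that no FACS cluster received. Markers of that class summed to 3881 CPM in FACS and 797 CPM in beads endothelial cell-like cells. The FACS endothelial cell-like class may thus be mixed, which was not tested. Classes are clusters named from marker lists without use of the FGF genes. Doublet calling marked only 2 beads and 5 FACS cells, which were left out, so other doublets remain.

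**Figure D3:**
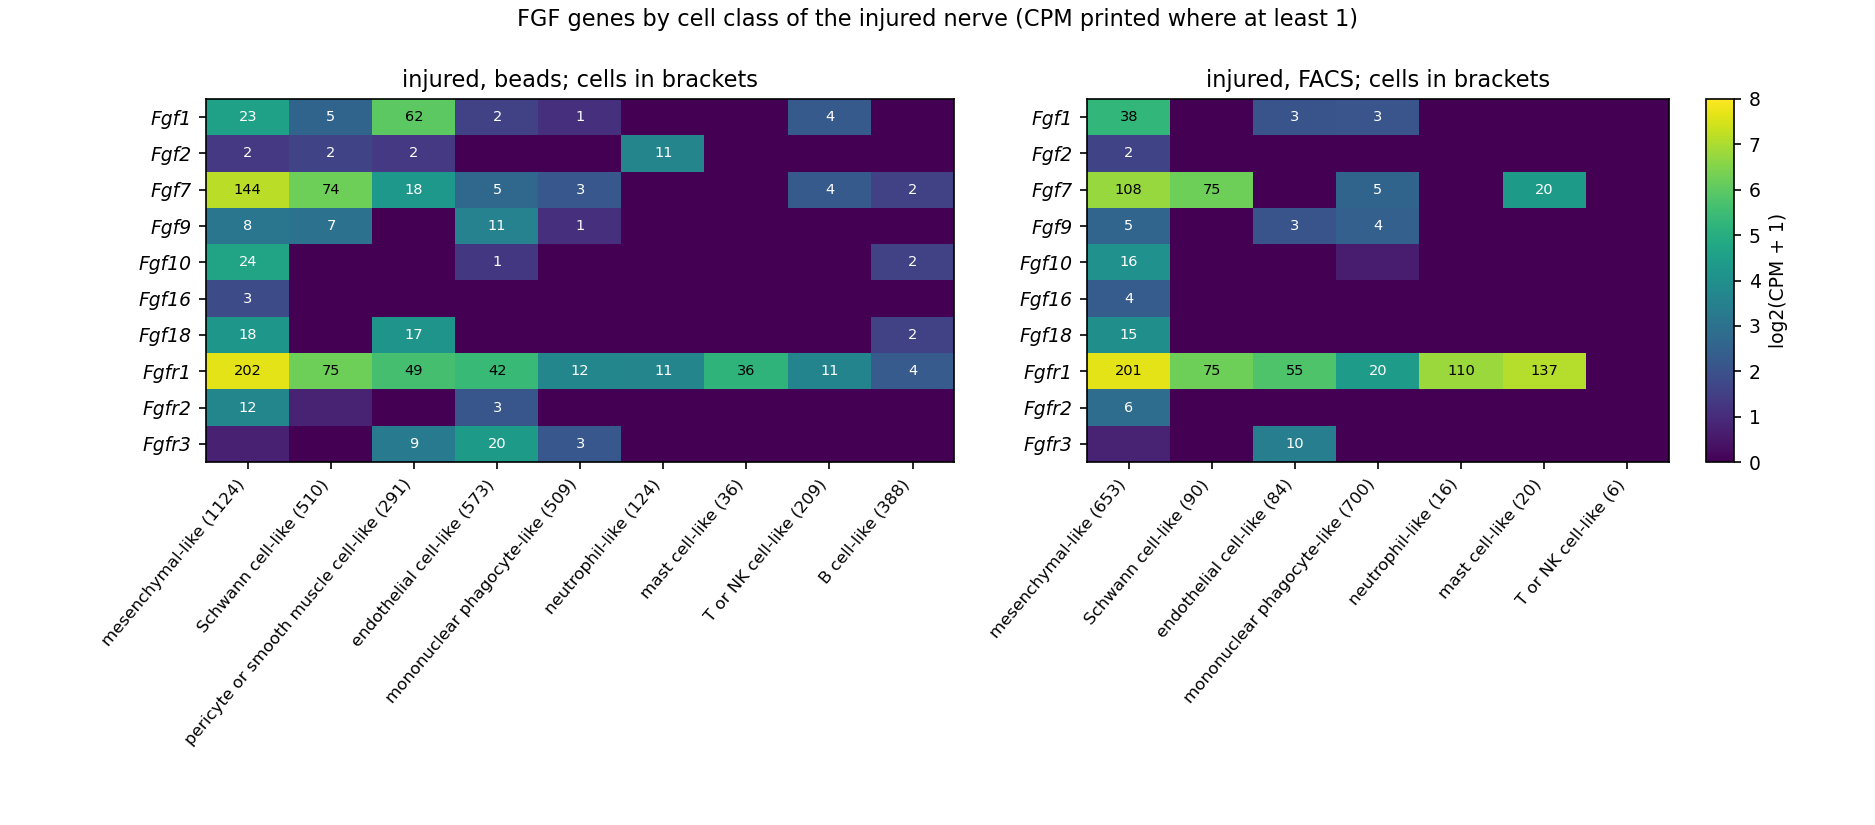
Level of the 10 FGF genes, as log2(CPM + 1) in colour with CPM printed where at least 1, in the named cell classes of the injured beads library (left) and the injured FACS library (right), with the number of cells in brackets. Fgf7 had 144.5 CPM in mesenchymal-like and 74.1 CPM in Schwann cell-like cells of the beads library, and values in classes of 36 cells or fewer rest on few UMIs.

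Fgf7 had 144.5 CPM (134 to 156) in 1124 mesenchymal-like cells and 74.1 CPM (60.6 to 89.7) in 510 Schwann cell-like cells of the beads library. In the beads library pericyte or smooth muscle cell-like cells followed with 18.3 CPM (9.43 to 31.9), endothelial cell-like cells with 5.4 CPM (2.69 to 9.66) and B cell-like cells, which should lack the gene, with 1.94 CPM (0.0491 to 10.8). The 3 highest named classes of the beads library do not overlap in their intervals. A further 345 beads cells had no class name, with 65.8 CPM (39.6 to 103) of Fgf7, which overlaps the Schwann cell-like level. Mesenchymal markers summed to 58097 CPM in them, and they had 190.5 CPM of Fgfr1 and 41.6 CPM (21.5 to 72.6) of Fgf1. The 340 FACS cells with no class name had 64.6 CPM of Fgf7. In the FACS library, mesenchymal-like cells had 108 CPM (98.8 to 119) and Schwann cell-like cells 74.8 CPM (44.3 to 118, 18 UMIs), and these intervals overlap. In the beads library an Fgf7 UMI was seen in 30.7% of mesenchymal-like, 12.9% of Schwann cell-like and 0.258% of B cell-like cells, at median depths of 3389, 2268 and 763.5 UMIs. Thinned to 500 UMIs these shares were 7.19%, 4.09% and 0.322%, and in the FACS library 3.94% of mesenchymal-like and 1.33% of Schwann cell-like cells (1 of 75).

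Within the Schwann cell-like class, Fgf7 lay mainly in 1 of its 2 clusters. The cluster led by Epha5, Pex5l, Btc, Olig1 and Ngfr (314 cells) had 138 CPM (111 to 169, 92 UMIs), and the one with Sostdc1 and Egfl8 among its leading genes (196 cells) 17.4 CPM (9.24 to 29.7, 13 UMIs). Ngfr encodes a neurotrophin receptor that Schwann cells without axons carry. The Schwann cell factor Sox10 stood at 379 CPM in the first and 303 CPM in the second. Mesenchymal markers summed to 5232 CPM in the first and 18004 CPM in the second cluster. Pdgfra, Dcn and Lum, which made up little of these sums, did not show that gap. Pdgfra had 7.49 CPM in the first and 6.68 CPM in the second, Dcn 193 and 214 CPM, and Lum 142 and 112 CPM. In a check chosen after the data were seen, the 174 cells of the first cluster with no UMI of Pdgfra, Dcn or Lum had 134 CPM (93.2 to 186, 35 UMIs) of Fgf7, against 20.1 CPM (5.47 to 51.4, 4 UMIs) in 80 such cells of the second. The check left aside the markers that carry most of the sums, so it cannot show whether those cells were free of mesenchymal transcripts. Fgf5, a ligand related to Fgf4 that is known to restrain hair growth, did not follow that split, with 127 CPM (102 to 157) in the first and 140 CPM (115 to 170) in the second cluster. In the class as a whole Fgf5 had 134 CPM in the beads and 183 CPM in the FACS library, against 3.26 and 4.91 CPM in mesenchymal-like cells.

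Fgf10 had 24.4 CPM (112 UMIs) in mesenchymal-like cells, and 0 UMIs in Schwann cell-like cells allow up to 2.12 CPM there. Fgf18 had 17.8 CPM in mesenchymal-like and 16.7 CPM in pericyte or smooth muscle cell-like cells, and 0 UMIs in endothelial cell-like cells. Fgf16 was read in no named class but the mesenchymal-like one, with 12 UMIs. Fgf9 was low as an average of each class, with 7.83 CPM (5.49 to 10.8) in mesenchymal-like, 7.06 CPM (3.39 to 13) in Schwann cell-like and 10.8 CPM (6.77 to 16.3) in endothelial cell-like cells, an order that does not exceed the counting error. Of its 36 mesenchymal-like UMIs, 21 lay in a cluster of 225 cells, at 46.9 CPM (29.0 to 71.7). The 10 Schwann cell-like UMIs came from 2 cells.

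Fgf1 had 62.4 CPM (44.8 to 84.6) in pericyte or smooth muscle cell-like cells, 22.6 CPM (18.5 to 27.4) in mesenchymal-like cells and at most 4.94 CPM in B cell-like, endothelial cell-like and Schwann cell-like cells. Of its 41 UMIs in the first class, 32 lay in the 77 cells of a cluster with 5999 CPM of the smooth muscle myosin Myh11, where Fgf1 stood at 159.8 CPM (109 to 226). The 214 cells led by the pericyte gene Rgs5 had 19.7 CPM (9.00 to 37.4). Within this class Fgf1 was thus higher in the smooth muscle cluster than in the Rgs5 cluster. So was Fgfr1, with 125 CPM (80.8 to 184) and 15.3 CPM (6.16 to 31.5), though mesenchymal-like cells had more of it (202 CPM). Fgfr3 had 25.0 and 2.19 CPM in these clusters, on 5 UMIs and 1 UMI, too few to order them.

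Fgfr1 had 202 CPM (189 to 215) in mesenchymal-like, 74.8 CPM (61.3 to 90.5) in Schwann cell-like, 48.7 CPM (33.3 to 68.7) in pericyte or smooth muscle cell-like and 42.2 CPM (33.8 to 52.1) in endothelial cell-like cells, and the last pair overlap. B cell-like cells had 3.88 CPM (0.470 to 14.0). In the FACS library the levels were 201 CPM in mesenchymal-like, 137 CPM (55.0 to 282, 7 UMIs in 20 cells) in mast cell-like, 74.8 CPM in Schwann cell-like and 54.9 CPM in endothelial cell-like cells. Fgfr3 had 19.6 CPM (14.0 to 26.7, 40 UMIs) in endothelial cell-like cells against 0.653 CPM (0.135 to 1.91) in mesenchymal-like cells, and 9.69 CPM (3 UMIs) against 0.701 CPM in the FACS library. Its UMIs lay in 4.89% of endothelial cell-like and 0.267% of mesenchymal-like cells, although the median depth was 1944 UMIs in the first class and 3389 in the second.

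The genes with the most similar pattern over the 9 named classes of the beads library were picked by Pearson's r of log2(CPM + 10). The classes share 1 library, and r over so few classes is a description. For Fgf7 they were Wbscr17 (r = 0.99), Pdzrn3 (0.99) and Fam171b (0.99), with r of 0.93, 0.92 and 0.39 over 7 FACS classes. For Fgf10 they were A2m, Tmeff2 and Sfrp4 (FACS r 1.0, 0.98 and 0.77), and for Fgf1 Adamts12, Foxs1 and Casq2 (0.83, 0.61 and 0.57). For Fgfr1 they were Arf4, Angptl4 and Cdkn1c (0.81, 0.38 and 0.54), for Fgfr2 Comp, Mest and Vcan (0.94, 0.67 and 0.76) and for Fgfr3 Fabp4, Ch25h and Tmem204 (0.90, 0.97 and 0.95). For Fgf18 they were Hoxc10, Twist1 and Serping1 (0.91, 0.88 and 0.76). For Fgf9 they were Cyp2d22, Itgb4 and Sema7a, whose FACS r of 0.17, -0.12 and 0.07 did not repeat the pattern.

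The rest of the pathway in mesenchymal cells was described with 6 gene lists, again for injured over uninjured cells, where the median log2 ratio of all genes with 10 CPM was 0.19 and 10.1% of them were called higher and 6.90% lower (17.0% either way). Of 15 other ligands and FGF homologous factors, 7 had a row and 0 reached 10 CPM. Of 10 further receptors, co-receptors and binding proteins 3 reached it and 0 were called, between Nptn at 0.06 (-0.08 to 0.20) and Flrt2 at -0.12 (-0.34 to 0.10). The decoy-like receptor Fgfrl1 lay at -0.11 (-0.54 to 0.34). In endoneurial-like cells Flrt2 was called higher, with 53.8 CPM in injured, 36.2 CPM in FACS and 9.90 CPM in uninjured cells. Its log2 ratios there were 2.44 (1.53 to 3.49) for injured and 1.87 (0.85 to 3.01) for FACS over uninjured. In perineurial-like cells Flrt2 was called lower for FACS over uninjured, at -1.81 on 9 FACS UMIs. Of 17 adaptors and effectors 16 reached 10 CPM and 0 were called in the pooled cells (median 0.31), between Sos1 at 0.75 (0.29 to 1.24) and Mapk3 at -0.66 (-0.97 to -0.35).

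**Figure D4:**
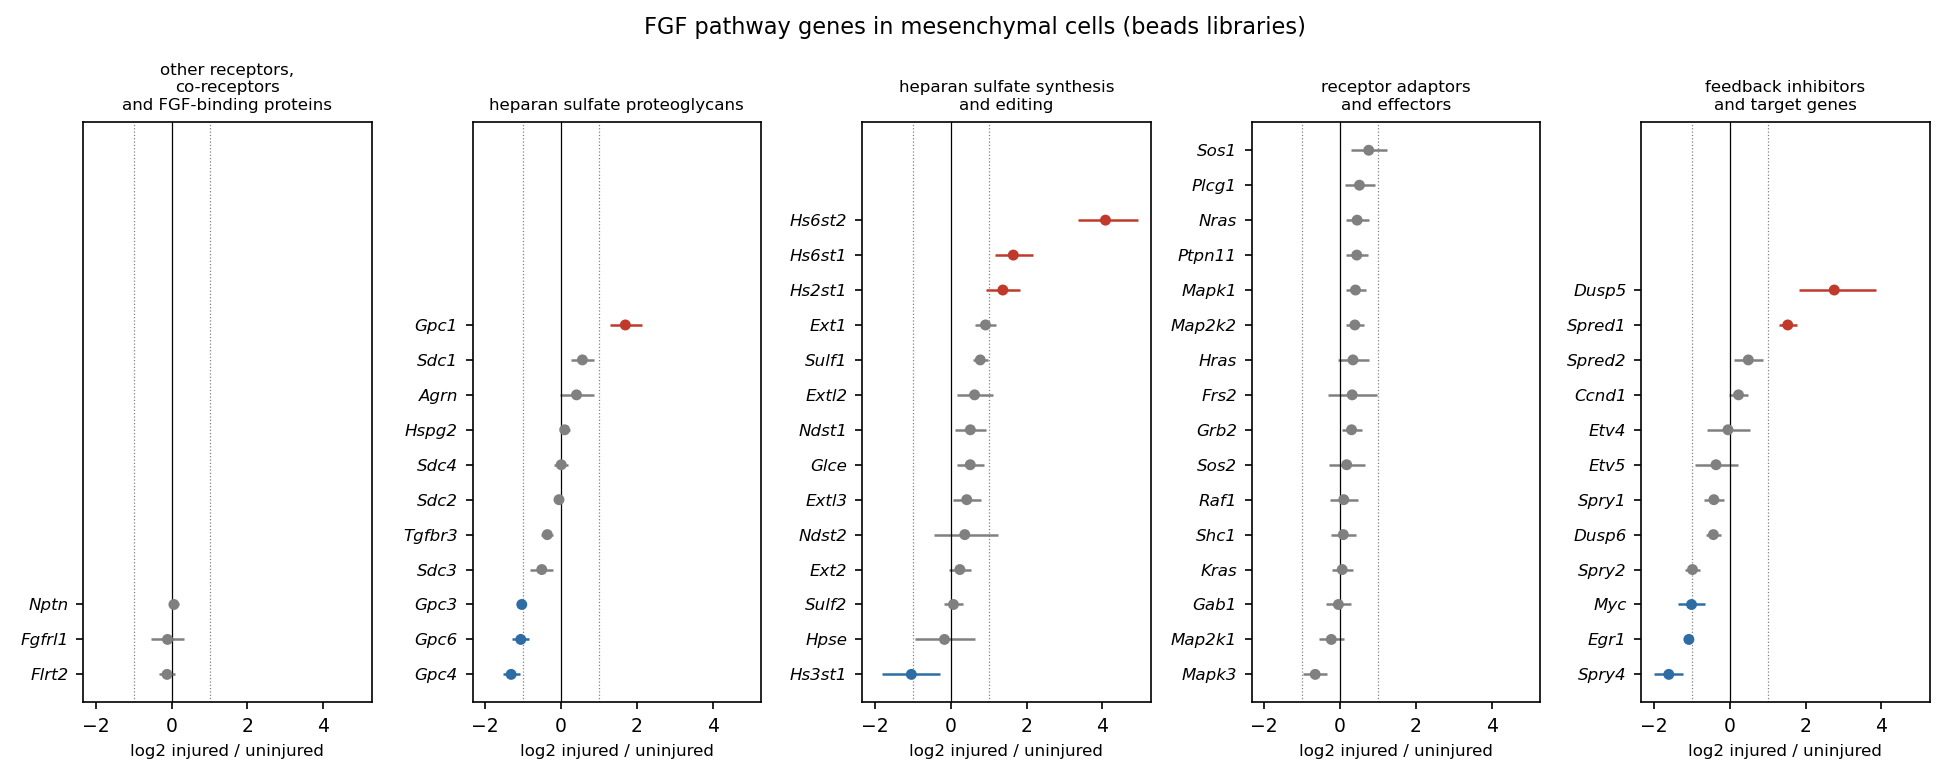
Log2 ratio of injured over uninjured mesenchymal cells (beads libraries) for the pathway genes with at least 10 CPM in a pool, with exact conditional binomial 95% intervals that cover counting error only. Genes called higher in injured cells are red and those called lower blue, and dotted lines mark a 2-fold difference; Hs6st2 at 4.08 was the highest.

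The genes that make and edit heparan sulfate, the sugar chain that holds FGFs at their receptors, included 3 sulfotransferases that were higher in injured cells. Of 16 such genes 14 reached 10 CPM. Of these, 3 were called higher and 1 lower, against 10.1% and 6.90% of all genes, and the list's median log2 ratio was 0.52, against 0.19 for all genes. For FACS over uninjured cells 13 reached 10 CPM, 3 were higher and 0 lower, against 11.4% and 8.45% of all genes, with a median of 0.35 against 0.15. Hs6st2, which adds 6-O-sulfate to the chain, had 117 CPM (556 UMIs) in injured, 71.3 CPM (305 UMIs) in FACS and 6.92 CPM (15 UMIs) in uninjured cells, a log2 ratio of 4.08 (3.35 to 4.93) for injured and 3.37 (2.62 to 4.22) for FACS over uninjured. Mast cell-like cells, which make heparin, had more (784 CPM), while mast cell markers summed to 40.5 CPM in injured, 112 CPM in FACS and 35.0 CPM in uninjured mesenchymal cells. Hs6st1, a second 6-O-sulfotransferase, had 57.9 CPM in injured, 54.0 CPM in FACS and 18.4 CPM in uninjured cells (log2 ratio 1.65 for injured over uninjured). Hs2st1, which adds 2-O-sulfate, had 59.8 CPM in injured, 47.7 CPM in FACS and 23.1 CPM in uninjured cells (1.38). Hs3st1, a 3-O-sulfotransferase, was lower, with 6.74 CPM in injured, 7.95 CPM in FACS and 13.8 CPM in uninjured cells (-1.04).

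In endoneurial-like cells the same 3 enzymes were higher, and so was Extl2, a gene of chain synthesis, at 1.04 (0.31 to 1.82). Hs6st2 had 89.0 CPM in injured, 30.6 CPM in FACS and 4.50 CPM in uninjured endoneurial-like cells, a log2 ratio of 4.31 (3.05 to 5.95) for injured over uninjured, with 2.59 (1.79 to 3.50) for Hs6st1 and 1.97 (1.26 to 2.75) for Hs2st1. In epineurial-like cells Hs6st2 had 12.2 CPM in injured, 68.8 CPM in FACS and 9.91 CPM in uninjured cells, so only the FACS library was called higher there. Of the 556 injured Hs6st2 UMIs, endoneurial-like cells held 149, epineurial-like cells 5 and perineurial-like cells 4, and the rest lay in differentiating-like and unnamed cells.

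Of 12 heparan sulfate proteoglycan core proteins 11 reached 10 CPM, 1 was higher and 3 were lower, all 4 of them glypicans, against 10.1% higher and 6.90% lower among all genes. Gpc1 had 82.0 CPM in injured, 75.0 CPM in FACS and 25.4 CPM in uninjured cells, with a log2 ratio of 1.69 (1.28 to 2.13) for injured over uninjured. Schwann cell-like cells of the injured beads library had 515 CPM of Gpc1. Gpc4 (-1.32), Gpc6 (-1.06) and Gpc3 (-1.04) were the lower ones, and in FACS cells these stood at -1.79, -1.25 and -1.74. Gpc3 had 1866 CPM in injured, 1147 CPM in FACS and 3830 CPM in uninjured cells. In the beads libraries Gpc1 was called in no resident subclass, with 0.07 (-0.61 to 0.77) in endoneurial-like cells. Gpc3 was called in none either, at -0.99 in endoneurial-like and -0.03 in epineurial-like cells, but FACS endoneurial-like cells were called lower (-1.65). In the beads comparison Gpc4 was lower only in endoneurial-like cells (-1.43) and Gpc6 only in perineurial-like cells (-1.25). FACS cells were called lower for Gpc4 in endoneurial-like (-1.21) and epineurial-like cells (-1.70). For Gpc6 they were called lower in perineurial-like cells (-2.95, on 6 FACS UMIs). The part of subclass mix in the pooled values was not tested.

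Of 16 feedback inhibitors and target genes 12 reached 10 CPM. Of these, 2 were higher and 3 lower, against 10.1% and 6.90% of all genes, with a median of -0.39 against 0.19. Spry4 had 21.1 CPM in injured, 17.3 CPM in FACS and 64.1 CPM in uninjured cells, a log2 ratio of -1.60 (-1.99 to -1.22) for injured over uninjured. Spry2 lay at -0.98 (-1.18 to -0.78) in injured cells, just under the rule, and at -1.28 in FACS cells, past it. The early response genes Egr1 (-1.08) and Myc (-1.01) were also lower in injured cells. For FACS over uninjured cells Egr1 was called lower (-1.18) and Myc was not called (-0.48). Spred1, which holds back Ras, had 225 CPM in injured, 162 CPM in FACS and 77.9 CPM in uninjured cells (1.53, 1.30 to 1.77). Dusp5, a phosphatase of nuclear ERK, had 31.2 CPM in injured, 22.2 CPM in FACS and 4.61 CPM in uninjured cells (2.76, 1.84 to 3.85). In endoneurial-like cells the same split held in the beads libraries, with Spred1 at 1.92 and Dusp5 at 2.68 and with Spry4 at -1.32, Egr1 at -1.37 and Myc at -1.80. The other subclasses differed. In perineurial-like cells Spred1 was called higher (2.48), while Egr1 lay the other way, at 0.83 for injured and 0.71 for FACS over uninjured, neither called. In epineurial-like beads cells Spry2 was called lower (-1.58), while Egr1 (-0.47) and Myc (0.18) were not called.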

How the data were processed

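Drop-seq counts of 3 mouse sciatic nerve libraries were used. The authors deposited 4 count tables (UMIs, whole numbers, not normalized): all barcodes of both injured libraries, and mesenchymal cells of the injured and uninjured beads libraries. Reads were placed on mm10, per the submitters' processing notes; no source used here names the aligner, counting tool, batch or mesenchymal rule. All 1289 injured mesenchymal barcodes recur in the beads table of the same nerve, with identical counts. In 2 tables an older symbol of a marker (Fcmr) and in all of them another (Adgre1) was updated.

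Computation used Python 3.11.15 (scanpy 1.11.5, scipy 1.17.1, leidenalg 0.10.2) and R 4.3.3 (edgeR 4.0.16, DESeq2 1.42.0) for 2 alternative scalings. Barcodes with at least 200 genes were clustered (2000 variable genes without the FGF genes, 30 components, Leiden resolution 0.8) and named from marker lists by mean enrichment (score and margin of at least 1, 3 markers seen in 5% of cells). The 2 mesenchymal tables were clustered as 1 set and FACS cells apart. Scrublet marked 2 of 4111 and 5 of 1914 cells, which were left out. So few marks show that it did not work, so doublets remain. With 1 library per group no p-value is given. UMIs were summed per pool, a pool at 0 was taken at 3 counts, and a gene was called at 10 CPM in a pool, a 2-fold difference and a 95% interval without 1. This rule was checked on simulated counts. The named genes are the 10 FGF genes, list genes past the rule or otherwise the highest and lowest of a list, and Fgfrl1. Added to these are the 3 most similar genes per FGF gene with at least 30 UMIs. Flrt2 and the glypicans by subclass, Fgf5 and marker genes named beside them were chosen after their values were seen. Members and lists were chosen with earlier results of these data known. Alternatives were other scalings, floors, cell filters, thinning, equal subclass weights, other clusterings and the FACS library.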

Additional observations from a re-analysis of the deposited data

Results flagged for a closer look

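Fgf1 stood out because its difference between injured and uninjured cells ran in opposite directions in 2 subclasses. The log2 ratio of injured over uninjured cells was 1.55 in endoneurial-like cells, on 22 UMIs in injured and 5 in uninjured cells, and -1.37 in perineurial-like cells, on 8 UMIs in injured and 14 in uninjured cells. The difference between the subclasses was not tested. With each cell given the subclass of its highest marker score the ratios were 1.73 (0.28 to 3.50) and -1.14 (-2.15 to -0.07). FACS cells gave 0.82 and 0.76 for the same subclasses over the uninjured library, with intervals that include 0.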

How the results depend on the processing

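No paired analysis was possible because each group is 1 library. The counts of FGF genes called in injured over uninjured mesenchymal cells (0 higher, 1 lower) became 2 lower (Fgf9 and Fgf16) with TMM factors, with DESeq2 size factors, with no minimum level and in cells of at least 1000 UMIs, 0 lower at a 50 CPM minimum, 1 higher (Fgf10, 1.59) and 0 lower (Fgf9, -0.51) with 3 subclasses at equal weight, and 1 higher and 2 lower with the FACS library. Over all genes, 991 were higher and 675 lower; TMM gave 767 and 846 and DESeq2 780 and 837, shifting the median log2 ratio by -0.13 and -0.12. A 50 CPM minimum gave 324 and 283, no minimum 1094 lower, and equal weights 658 higher. Pathway calls (6 higher, 7 lower) were 6 and 8 with TMM and 5 and 6 at 50 CPM. Thinned to 1000 UMIs per cell, Fgf9 stood at -1.06 and Fgf10 at 0.55. In the 394 injured and 206 uninjured cells with under 2 UMIs of other cells' markers, Fgf9 stood at -1.76, Fgf7 at -0.29, Fgf10 at 1.08, Fgf18 at 0.24 and Fgf16 at 1.24. The cause of these changes was not tested, except that the minimum level sets which genes can be called. The ratio of Fgf9 over all mesenchymal cells kept its sign. By subclass, with the FACS library in place of the injured beads library, Fgf10 in epineurial-like cells stood at -0.39 where it was called at 1.59, and Fgf1 in perineurial-like cells at 0.76 where it was called at -1.37. Values of single genes stayed within the counting error in 145 cases and moved beyond it in 39, shares of thinned cells among them. FGF genes under 10 CPM are below what this depth can compare.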
